A study of Mus musculus with 23 samples.

Results

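The genes described here encode the signalling layer that lies between dopamine receptors and their intracellular targets: heterotrimeric G protein subunits, regulators of G protein signalling (RGS), adenylyl cyclases and cyclic nucleotide phosphodiesterases. Members were all genes whose platform symbol begins with Gna, Gnb, Gng, Rgs, Adcy or Pde followed by the next character of a subunit or isoform name. Each was read from its probe set with the highest mean over all 23 arrays. The rule gave 58 genes of the 8251 on the array, and it used no comparison between groups. They were 14 alpha subunits, 5 beta subunits, 6 gamma subunits, 13 RGS genes, 7 adenylyl cyclases, 11 phosphodiesterases and 2 genes that match by symbol only. The last are Gnasas1, an antisense transcript of the Gnas locus, and Pde4dip, which encodes an anchoring protein of phosphodiesterase 4.

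Affymetrix expression arrays were used to measure messenger RNA of the nucleus accumbens, the part of the ventral striatum that dopamine neurons of the midbrain supply most densely. The mice came from short-term selected lines founded on a C57BL/6J x DBA/2J stock and bred for acute sensitivity to methamphetamine, a stimulant drug that makes neurons release dopamine: HMACT mice respond strongly and LMACT mice weakly. Mice of both lines were killed 1 hour after an injection of saline or of 2 mg/kg methamphetamine. The groups were 6 HMACT saline, 6 HMACT methamphetamine, 6 LMACT saline and 5 LMACT methamphetamine arrays, each on a 4-way tissue pool. The labels do not say how animals were shared among pools, so the p-values reflect only how these pools varied, which may be partly technical. The lines also differed in age: pools averaged 114.65 ± 34.9 days in HMACT (SD, n = 12) and 76.6 ± 22.5 days in LMACT (SD, n = 11).

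A receptor that is occupied by its agonist loads GTP onto the alpha subunit and frees the beta-gamma dimer, and both then act on effectors. Gs-type alpha subunits stimulate adenylyl cyclase, which makes cyclic AMP, while Gi and Go subunits restrain it. D1-type dopamine receptors couple to the stimulatory arm, in striatum mainly through the Golf subunit, and D2-type receptors couple to Gi and Go. RGS proteins speed the hydrolysis of GTP and so end the signal, and phosphodiesterases break down the cyclic nucleotide.

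Of 27 members listed for their known roles in striatal signalling, 20 had a probe set assigned to a single gene. Gnal, Gng7, Adcy1, Adcy5, Pde2a, Pde7b and Pde10a were not analysed here. The deposited log2 values have a floor, and values under 2.3 were taken as being at it. At that floor on every array were 14 members (24.1%), a share like that of all genes (25.3%). A further 5 were there on 12 to 22 arrays. Rgs9, a striatal RGS gene, Gnaz, a Gi-family alpha subunit, and Gng2, a gamma subunit, were at the floor on all 23. Gnaq, the alpha subunit that activates phospholipase C, and Rgs4, an RGS gene of forebrain neurons, were there on 21 and 22 arrays. A value at the floor gives no level, so no difference was measurable for these probe sets. Because a probe set can also rest at a higher minimum of its own, members within 0.05 of their lowest value on 12 or more arrays were set aside as well. This step was added after seeing the data. It left 36 members with measured variation, and 35 without Pde4dip.

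Tissue identity was checked against a list of marker genes. Of 9 markers of striatal projection neurons, 5 were on the array (Drd2, Penk, Tac1, Pdyn and Gad1), and none was at the floor on every array. The log2 of their summed linear values ran from 13.7 to 14.7 in HMACT saline, 14.2 to 14.6 in HMACT methamphetamine, 14.4 to 14.8 in LMACT saline and 14.3 to 14.7 in LMACT methamphetamine, so the groups overlapped. The log2 sum of 6 oligodendrocyte markers, of which Cnp was at the floor, ran from 12.46 to 13.11, 12.10 to 13.15, 12.88 to 13.49 and 13.16 to 13.59 in the same order of groups. That of 6 astrocyte markers, none at the floor throughout, ran from 13.19 to 13.70, 13.10 to 13.41, 13.36 to 13.67 and 13.49 to 14.07. After methamphetamine both glial sums were thus lower in every HMACT array than in any LMACT array, while after saline the lines overlapped. That of 7 microglial markers, of which Cx3cr1 was at the floor, ran from 10.2 to 11.8, 10.6 to 10.9, 10.8 to 11.1 and 10.6 to 11.1, and that of 2 cortical excitatory markers from 8.35 to 10.18, 8.94 to 9.46, 9.04 to 9.51 and 9.01 to 10.40. In bulk tissue fewer cells of a type and less RNA per cell cannot be told apart, and the part of cell composition in the values below was not tested.

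Much of the within-group variation of these genes lay along 1 axis, and 4 arrays were far out on it. This array axis, the leading principal component of deviations from the group means, was taken over 5308 genes and carried 62.1% of the variance of these deviations. Each array was scored on it by its deviations from the mean of all arrays, so shifts between groups are kept in the scores. Scores ran from -19.7 to 65.0 in HMACT saline and from -22.1 to 62.5 in HMACT methamphetamine. They ran from -22.8 to -14.0 in LMACT saline and from -20.6 to 56.5 in LMACT methamphetamine. The 4 arrays that stood apart were LMACT methamphetamine replicate 4, HMACT methamphetamine replicate 3 and HMACT saline replicates 3 and 5. No LMACT saline array did. The axis carried a median of 51.4% of the within-group variance of the 36 measured members, against 43.1% over 4881 genes filtered in the same way. Because 3 of the 4 arrays are HMACT, the line differences of members with an unadjusted p under 0.05 are given below with and without them. The deposited values of control transcripts were on average 1.87 higher (log2) at the 3′ than at the 5′ end on these 4 arrays, against 2.60 on the other 19. HMACT saline replicate 3 was lowest at 1.07. The 4 arrays reached up to 2.26 and so overlapped the other 19, which began at 2.12. Among those 19, LMACT methamphetamine replicate 5 had by far the highest such value of any array, 4.57, with 2.80 the next highest, and the mean of the other 18 was 2.49. By group the mean was 2.11 in HMACT saline, 2.35 in HMACT methamphetamine, 2.63 in LMACT saline and 2.87 in LMACT methamphetamine. The last includes replicate 5. This control value was thus lower on average in HMACT after both injections, with overlap of the arrays. The part of RNA or labelling quality in the axis and in the line differences below was not tested.

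**Figure D1:**
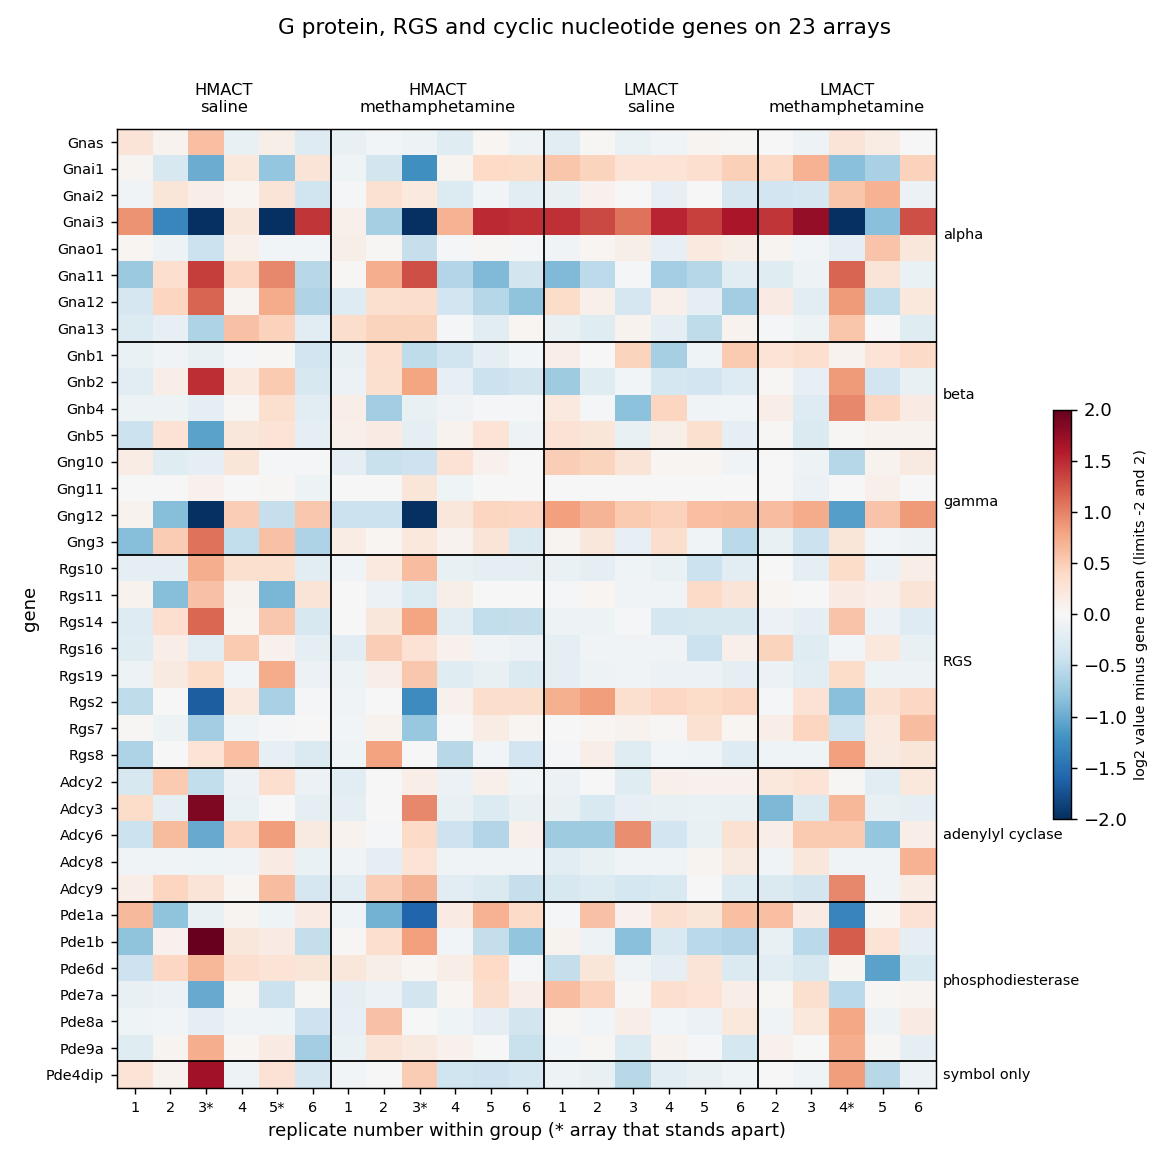
Colour shows the log2 value of each of the 36 measured members minus that gene's mean over 23 arrays, with colours limited at -2 and 2. Columns are arrays by group and replicate number, an asterisk marks the 4 arrays that stand apart, and rows are ordered by class. Gnai3, Gng12 and Rgs2 are low, and Gna11, Gnb2 and Pde1b are high, on those arrays.

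Among alpha subunits, Gnai3, which encodes an inhibitory subunit of the Gi family, had the lowest difference of all 5308 genes between these 4 arrays and the others. It lay between 4.27 and 6.15 on the 4 arrays and between 7.78 and 10.85 on the other 19, with no overlap. Its values in HMACT saline had a lowest, median and highest value of 4.27, 8.55 and 10.52. HMACT methamphetamine had 4.49, 9.49 and 10.58, and LMACT saline had 10.17, 10.51 and 10.72. In LMACT methamphetamine, Gnai3 was 10.52, 10.85, 5.05, 8.25 and 10.38 in replicates 2 to 6. LMACT saline was thus uniformly high, and each of the other groups held at least 1 very low array. Its close relative Gnai1 was 1.16 lower (log2) on the 4 arrays, also without overlap.

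Members differed in sign on the 4 arrays among Gi alpha subunits, beta and gamma subunits, RGS genes and phosphodiesterases, while the 5 measured cyclases were level or higher there. Of the 36, 4 were lower on the 4 arrays without overlap (Gnai3, Gnai1, Rgs2 and Pde7a) and 6 were higher (Gna11, Gnb2, Rgs10, Rgs14, Rgs19 and Pde4dip). These 10 are 27.8% of the 36, against 20.4% of the 4881 genes. Gna11, the Gq-family subunit, was 1.46 higher (log2), with 9.54 to 9.97 on the 4 arrays and 7.69 to 9.31 on the others. Gnb2, a widely expressed beta subunit, was 1.10 higher, and Rgs14, which also binds Ras family proteins, was 0.92 higher. Pde1b, the calcium and calmodulin dependent phosphodiesterase of striatal neurons, was 1.45 higher but overlapped. The Gi, beta and RGS families therefore did not follow the axis as blocks. The membership of the 4 arrays was itself set by values that include these genes, so none of these differences was tested.

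**Figure D2:**
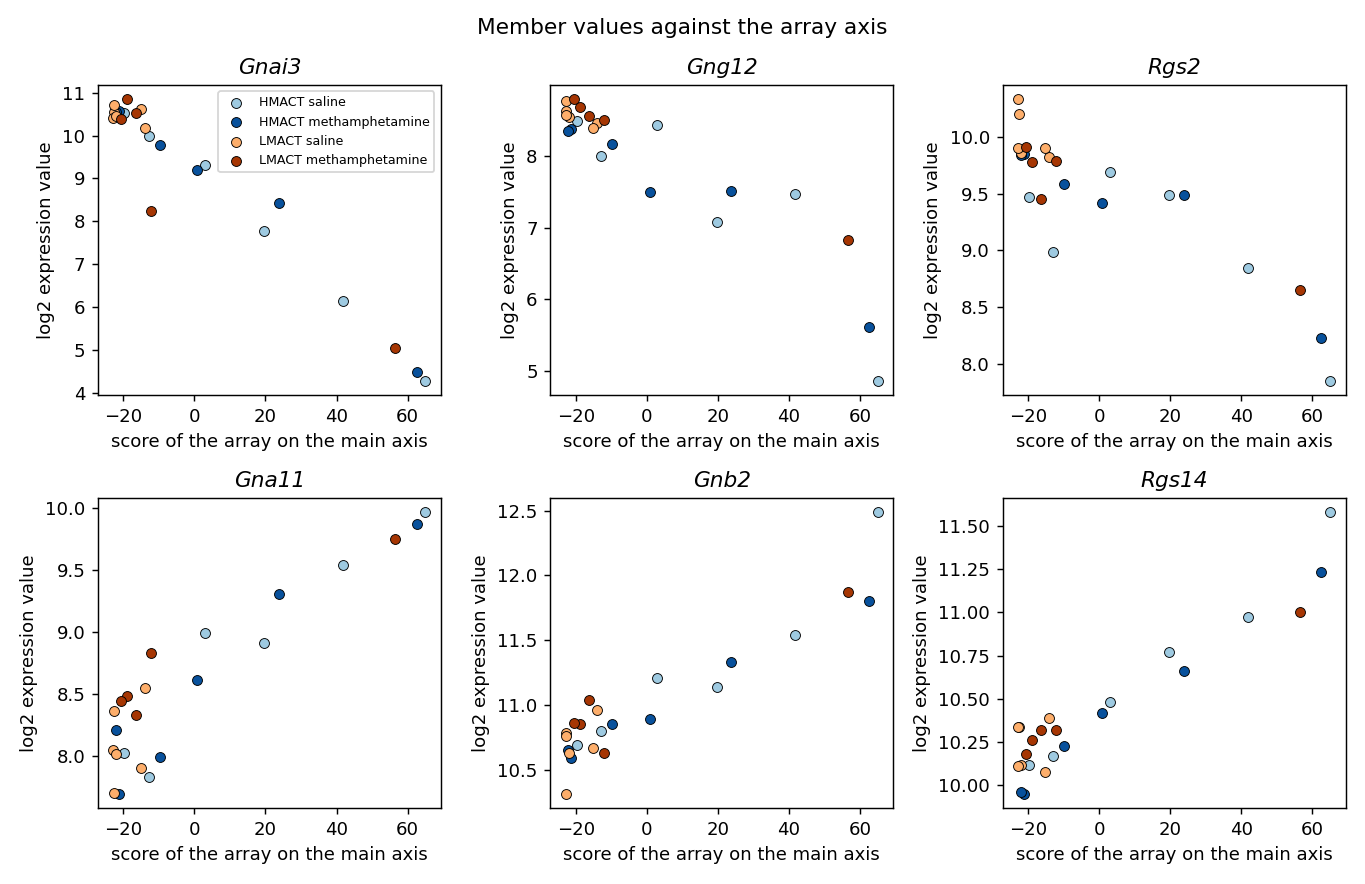
Each point is 1 array, with its score on the array axis on the horizontal axis and its log2 expression value on the vertical axis, coloured by group. The 4 arrays that stand apart have scores of 41.8 to 65.0. They hold the lowest values of Gnai3 and Rgs2 and the highest of Gna11, Gnb2 and Rgs14. Gng12 is low on them with overlap, at 4.86 to 7.47 against 7.08 to 8.79 on the other arrays.

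The first comparison asked whether any of these genes differed 1 hour after methamphetamine. None passed the test. As a mean of both lines, 0 of 58 members passed limma's test at an adjusted p under 0.05, where 0.0242% of all genes did, and 0 had an unadjusted p under 0.05, where 1.5% did. In HMACT alone 0 passed (all genes 0.0121%) and 0 had an unadjusted p under 0.05 (1.55%), and in LMACT alone the counts were 0 (0%) and 0 (3.33%). No member had methamphetamine and saline arrays that did not overlap in either line, against 0.109% of genes in HMACT and 0.667% in LMACT. The data set bounds on such changes: in the mean of both lines the 95% interval of 35 of 36 members lay within 1 log2 unit of 0, and that of 25 within 0.5. The exception was Gnai3, whose interval extended 1.77 to either side of its estimate. Within a single line the bounds were wider. In HMACT the intervals of 30 members lay within 1 and of 16 within 0.5, and in LMACT those of 29 and 10.

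The smallest p in the mean of both lines belonged to Gng10, a gamma subunit. Its lowest, median and highest values were 7.72, 7.93 and 8.21 in HMACT saline, 7.52, 7.86 and 8.26 in HMACT methamphetamine and 7.89, 8.12 and 8.46 in LMACT saline. LMACT methamphetamine held 7.97, 7.86, 7.4, 8.03 and 8.14 for Gng10. The groups overlapped in both lines, and the log2 difference of -0.20 (SE 0.104, adjusted p = 1 by limma) was seen as values below the saline mean of the same line in 8 of 11 methamphetamine arrays. Without the 4 arrays that stand apart it was -0.13. Next came Pde6d, which encodes a chaperone of prenylated proteins first found as a phosphodiesterase subunit, at -0.20 (SE 0.129), and Gna13, an alpha subunit of the G12 family, at 0.21 (SE 0.137). Without LMACT methamphetamine replicate 5, which holds the lowest Pde6d value and the highest 3′ minus 5′ control value, Pde6d differed by -0.11. Gna13 differed by 0.10 without the 4 arrays, and its second probe set had the opposite sign, at -0.11.

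Members with established roles in dopamine signalling showed small differences in both directions. Gnas, the stimulatory Gs subunit, had a log2 difference of -0.21 (SE 0.107) in HMACT and 0.11 in LMACT. In HMACT 6 of 6 methamphetamine arrays lay below the saline mean. Their values, 13.69 to 13.97, were all within the saline range of 13.67 to 14.54. The HMACT difference was -0.11 without HMACT saline replicate 3 and -0.08 without the 4 arrays. Gnao1, the abundant Go subunit of neurons, differed by 0.05 (SE 0.0858) and Gnai2 by 0.06 (SE 0.124) in the mean of both lines. Gnb5, the beta subunit that partners R7-type RGS proteins, differed by 0.04 (SE 0.131), and Gng3, a neuronal gamma subunit, by -0.02 (SE 0.191). Adcy6, a cyclase that Gi inhibits, differed by 0.02 (SE 0.237), and Pde1b by 0.09 (SE 0.318). All of these had an adjusted p of 1 by limma.

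Rgs2, which acts on Gq and is known as an activity-regulated gene in striatum, differed by -0.07 (SE 0.22) and Rgs16, a further inducible RGS gene, by 0.11 (SE 0.108). By class, the median log2 difference in the mean of both lines was 0.00 over 8 alpha subunits, 0.06 over 4 beta subunits, -0.03 over 4 gamma subunits, 0.06 over 8 RGS genes, 0.05 over 5 cyclases and 0.02 over 6 phosphodiesterases. Over 4881 genes it was -0.01. All 4 beta subunits had a positive sign, but only 3 of the 4 did without the arrays that stand apart.

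**Figure D3:**
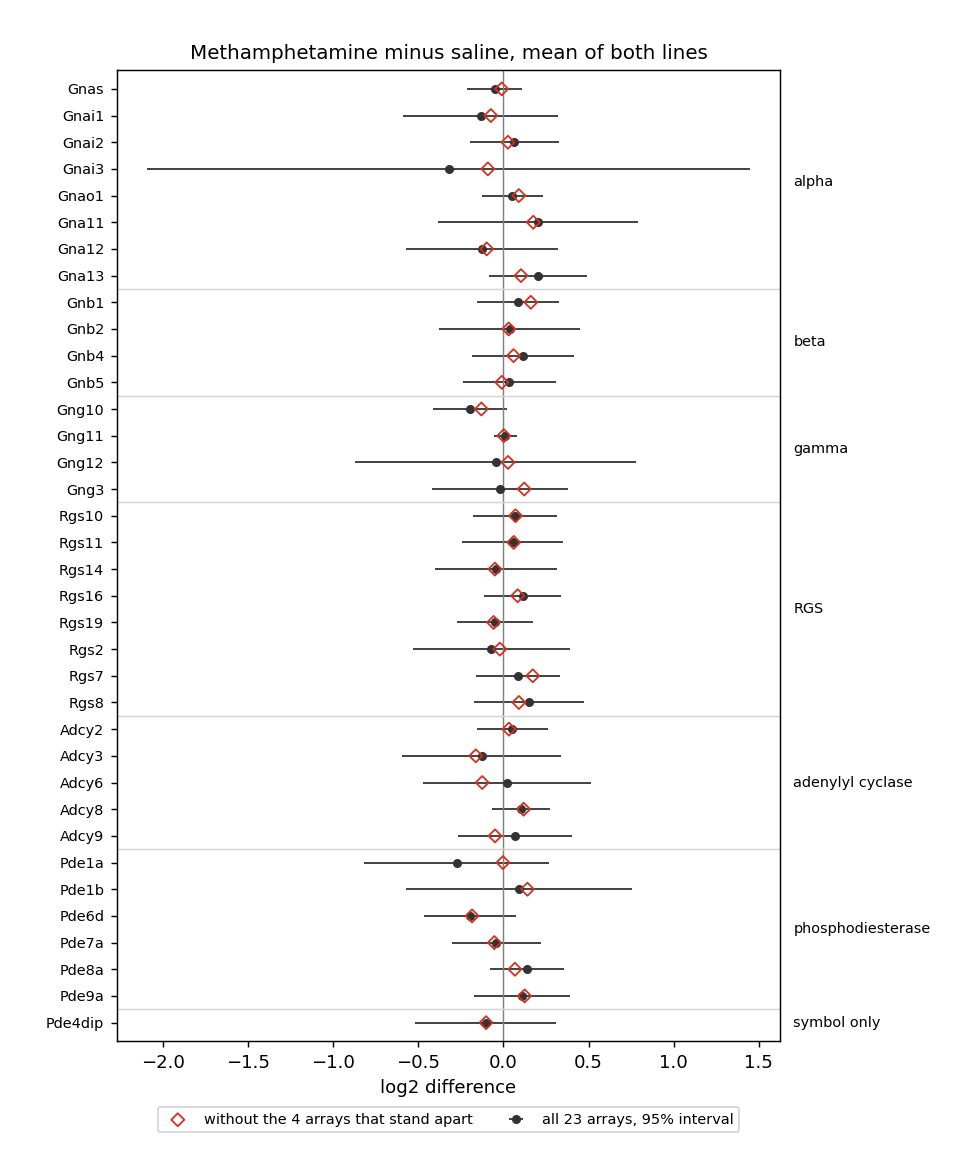
Dots give the log2 difference, methamphetamine minus saline as the mean of both lines, for the 36 measured members by class, with 95% intervals from the fit over 23 arrays. Open diamonds give the difference without the 4 arrays that stand apart, and every dot's interval includes 0.

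The second comparison was between the lines, which differ by selection for the drug response. Again 0 of 58 members passed at an adjusted p under 0.05 in the mean of both injections, against 0.194% of all genes. An unadjusted p under 0.05 was found for 6 members (10.3%), which is no larger a share than the 12.7% of all genes. Of these 1 was higher in HMACT, Pde6d (all genes 4.97%), and 5 were lower, Gnb1, Rgs2, Gng12, Pde7a and Rgs7 (all genes 7.7%). Without the 4 arrays that stand apart 6 members had an unadjusted p under 0.05, all 6 of them shared with the first count, against 14.4% of all genes. With the array axis as a covariate the count was also 6, against 9.03% of all genes, but only Pde6d and Gnb1 were shared with the first count. With mean age as a covariate it was 3, against 4.12%, and the same 2 were shared. Leaving out single arrays gave 3 members without HMACT methamphetamine replicate 3 or LMACT methamphetamine replicate 6, and 11 without LMACT methamphetamine replicate 4. With array weights, which give less weight to arrays far from their group, 4 members passed at an adjusted p under 0.05 by limma (Gng12, Gnai1, Pde6d and Rgs7), where 830 of the 8251 genes did.

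Pde6d had lowest, median and highest values of 7.65, 8.36 and 8.72 in HMACT saline, 8.02, 8.19 and 8.45 in HMACT methamphetamine and 7.58, 7.93 and 8.31 in LMACT saline. LMACT methamphetamine held 7.84, 7.74, 8.1, 6.99 and 7.75 for Pde6d. Of 12 HMACT arrays, 11 lay above the LMACT mean for the same injection, although the groups overlapped. The log2 difference was 0.43 (SE 0.129, adjusted p = 0.221 by limma). It was 0.44 without the 4 arrays, 0.34 without LMACT methamphetamine replicate 5, 0.46 with mean age as a covariate and 0.44 in the 15 pools under 100 days of age. It was positive in each of the 3 chip lots that held both lines, at 0.48, 0.22 and 0.52 in lots of 15, 4 and 3 arrays. The lot of 3 has 1 LMACT array.

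Gnb1, a major neuronal beta subunit, had lowest, median and highest values of 11.14, 11.42 and 11.55 in HMACT saline, 11.02, 11.35 and 11.86 in HMACT methamphetamine and 10.86, 11.58 and 12.04 in LMACT saline. LMACT methamphetamine held 11.79, 11.85, 11.59, 11.8 and 11.91 for Gnb1. HMACT lay lower in 11 of 12 arrays, with overlap. The log2 difference was -0.30 (SE 0.116, adjusted p = 0.329 by limma), -0.31 without the 4 arrays and -0.39 with mean age as a covariate. The other 2 probe sets of Gnb1 gave -0.55 and -0.31. Within chip lots of 15 and 4 arrays Gnb1 differed by -0.42 and -0.34, but by 0.58 in the lot of 3, which has 1 LMACT array.

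The differences of the remaining 4 were smaller without the 4 arrays and with mean age in the fit. Gng12, a broadly expressed gamma subunit, had lowest, median and highest values of 4.86, 7.74 and 8.48 in HMACT saline, 5.62, 7.83 and 8.37 in HMACT methamphetamine and 8.39, 8.56 and 8.76 in LMACT saline. LMACT methamphetamine held 8.55, 8.68, 6.83, 8.5 and 8.79 for Gng12. The log2 difference of -0.93 (SE 0.395, adjusted p = 0.355 by limma, lower in 10 of 12 HMACT arrays) was -0.61 without the 4 arrays. With mean age as a covariate it was -0.34, and in the 15 pools under 100 days it was -0.14.

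Rgs2 had lowest, median and highest values of 7.85, 9.23 and 9.69 in HMACT saline, 8.23, 9.53 and 9.85 in HMACT methamphetamine and 9.82, 9.9 and 10.33 in LMACT saline. LMACT methamphetamine held 9.45, 9.78, 8.65, 9.79 and 9.91 for Rgs2. After saline every HMACT array was below every LMACT array, and after methamphetamine the lines overlapped. The log2 difference in the mean of both injections was -0.53 (SE 0.22, adjusted p = 0.35 by limma, lower in 9 of 12 arrays), -0.34 without the 4 arrays and -0.26 with mean age as a covariate. It was negative in the 3 chip lots with both lines, at -0.80, -0.25 and -0.54. The last is from the lot with 1 LMACT array, and the HMACT saline array of that lot stands apart.

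Rgs7, an R7-type RGS protein that pairs with Gnb5 and acts on Gi and Go, was lower in 12 of 12 HMACT arrays than the LMACT mean, by -0.26 (SE 0.119, adjusted p = 0.385 by limma). Its values ran from 7.33 to 8.04 in HMACT saline, 7.26 to 8.16 in HMACT methamphetamine, 8.03 to 8.33 in LMACT saline and 7.62 to 8.63 in LMACT methamphetamine, with overlap after both injections. The difference was -0.21 without the 4 arrays and -0.17 with mean age as a covariate. Pde7a, a cyclic AMP specific phosphodiesterase, differed by -0.29 (SE 0.125, adjusted p = 0.355 by limma, lower in 9 of 12 arrays), by -0.21 without the 4 arrays and by -0.11 with mean age as a covariate. Age and line differ together in these pools, and their parts in the differences cannot be fully told apart.

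**Figure D4:**
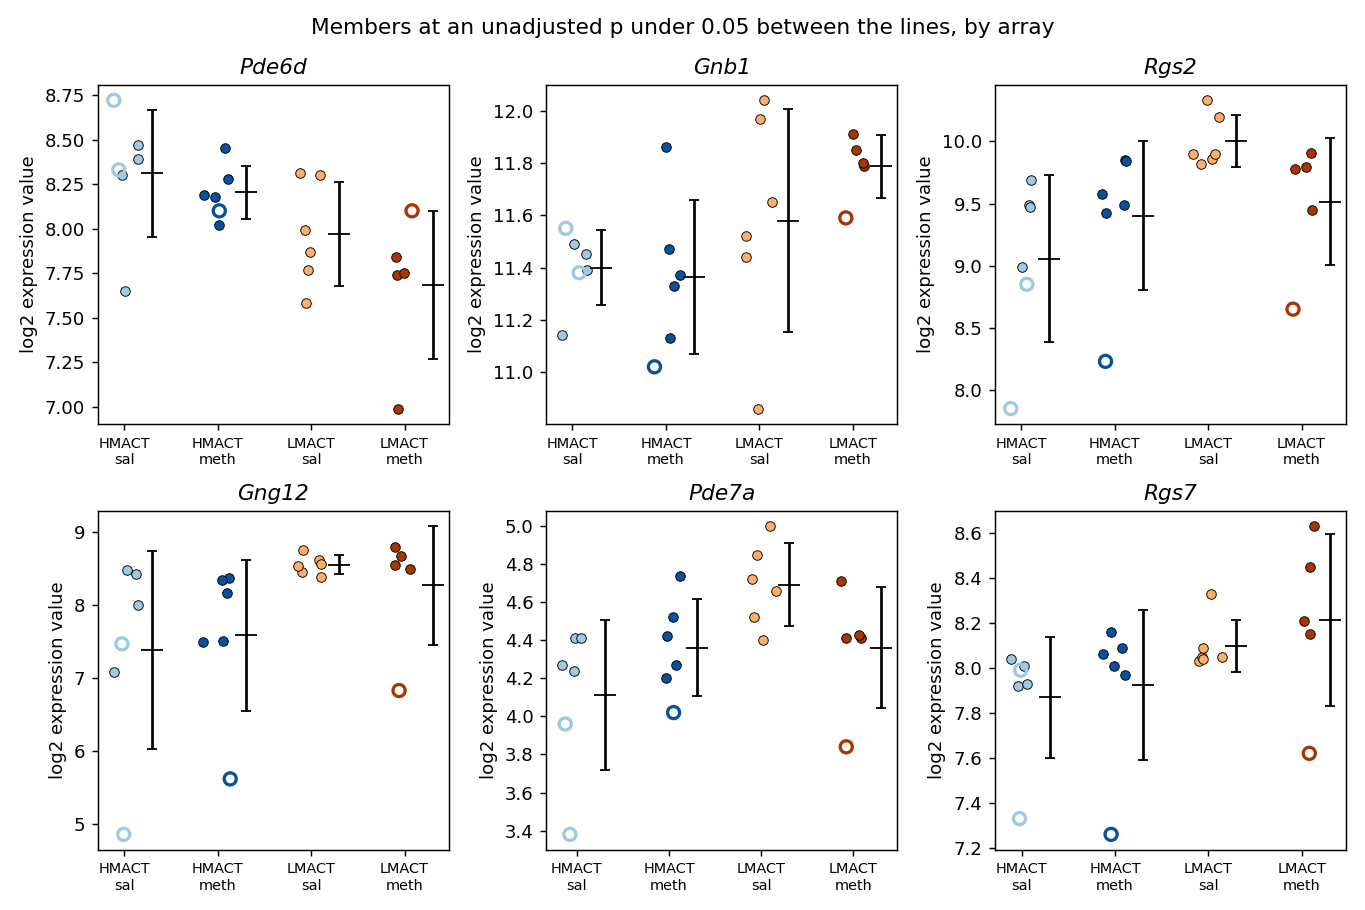
Points are log2 expression values of single arrays in the 4 groups for the 6 members with an unadjusted p under 0.05 between lines, with the group mean and SD beside them, and open circles are the 4 arrays that stand apart. Pde6d is higher and Gnb1 lower in HMACT with or without the open circles, while the low HMACT values of Rgs2, Gng12, Pde7a and Rgs7 include them.

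After saline alone, 0 of 58 members passed at an adjusted p under 0.05 (all genes 0%), and 6 had an unadjusted p under 0.05 against 15.2% of all genes. These were Pde7a at -0.58 (SE 0.172), Rgs2 at -0.94 (SE 0.303), Gnb2 at 0.63 (SE 0.273), Gnai1 at -0.65 (SE 0.301), Gng12 at -1.17 (SE 0.545) and Gnai3 at -2.49 (SE 1.17). Without the 4 arrays 3 of them had such a p: Pde7a at -0.36 (SE 0.116), Gng12 at -0.56 (SE 0.243) and Rgs2 at -0.59 (SE 0.144). Gnb2 was then 0.28, Gnai1 -0.34 and Gnai3 -1.09, and Gnb2 was 0.39 without HMACT saline replicate 3 alone. The count was 2 without HMACT saline replicate 3, 3 without HMACT saline replicate 5 or LMACT saline replicate 1 or 6, 11 without HMACT saline replicate 1 or HMACT methamphetamine replicate 3, and 14 without HMACT saline replicate 6. Groups did not overlap for 2 of the 58 members (3.45%), Gnai1 and Rgs2, both lower in HMACT, against 1.89% of all genes. Gnai1 ran from 9.70 to 10.95 in HMACT saline and from 10.97 to 11.25 in LMACT saline.

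After methamphetamine, 0 of 58 passed (all genes 0%) and 2 had an unadjusted p under 0.05, against 4.29% of all genes. These were Pde6d at 0.52 (SE 0.187) and Gnb1 at -0.42 (SE 0.168). Without the 4 arrays they were 0.65 and -0.41, and Pde6d was 0.35 without LMACT methamphetamine replicate 5. Gnb1 no longer had an unadjusted p under 0.05 by limma without the 4 arrays. The members that did were then Pde6d, Gng12, Rgs7 and Adcy8, against 8.8% of all genes. In these same arrays the oligodendrocyte and astrocyte marker sums given above did not overlap between the lines, but only narrowly. The highest HMACT and lowest LMACT values were 13.15 and 13.16 for oligodendrocytes, and 13.41 and 13.49 for astrocytes. The microglial sum overlapped. The part of cell composition in the differences was not tested. The count was 4 without HMACT methamphetamine replicate 2 or LMACT methamphetamine replicate 4, and 1 without HMACT methamphetamine replicate 3 or LMACT methamphetamine replicate 5. No member had groups that did not overlap, against 0.521% of all genes. By sign, 26 of the 35 measured members and 2834 of 4881 genes were lower in HMACT. Among alpha subunits 7 of 8 had a negative sign, with a median of -0.16, and among RGS genes 6 of 8 did, with a median of -0.06, against -0.04 over 4881 genes. Without the 4 arrays 27 of 35 members and 2674 of 4881 genes had a negative sign. These counts describe genes of the same arrays, which are not independent of each other, and no test was made over them.

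**Figure D5:**
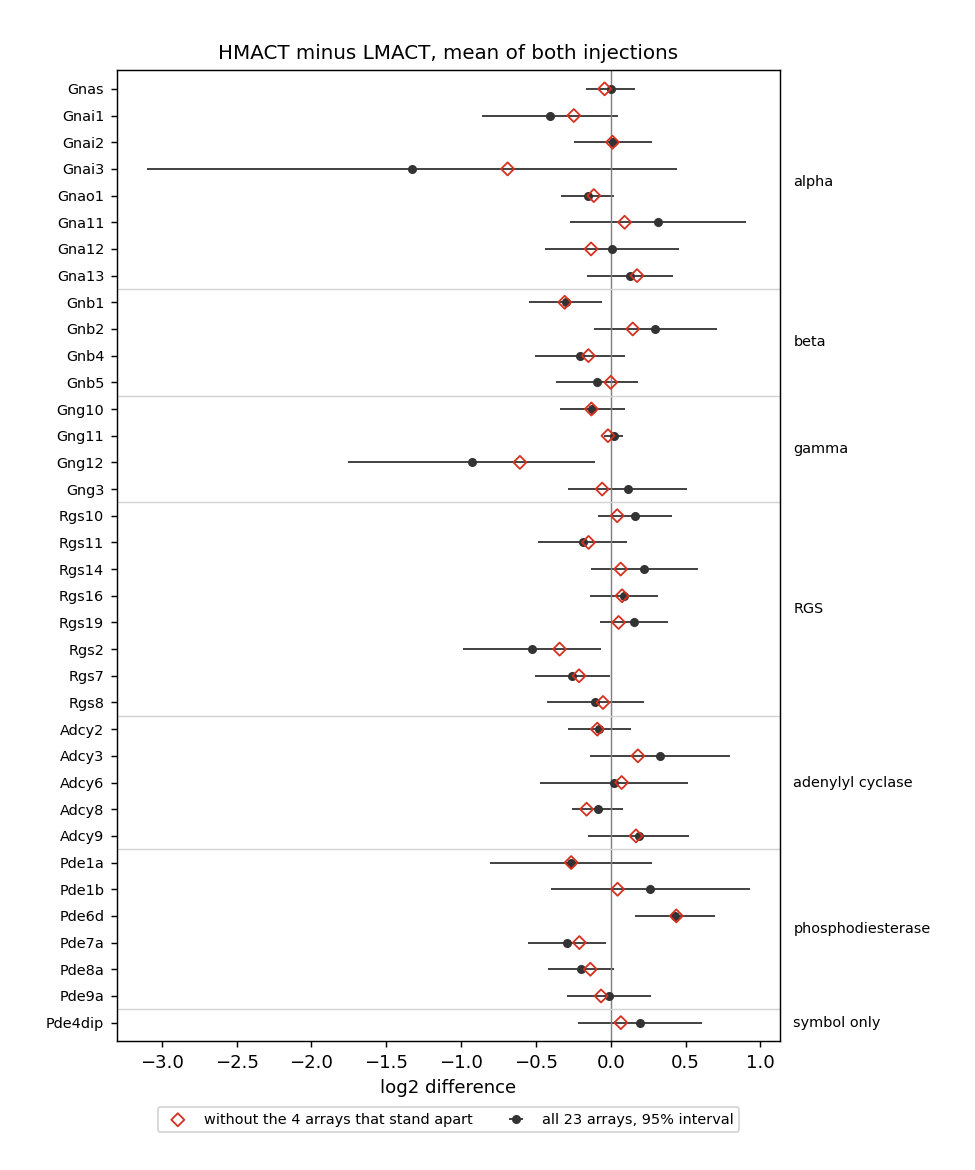
Dots give the log2 difference, HMACT minus LMACT as the mean of both injections, for the 36 measured members by class, with 95% intervals from the fit over 23 arrays. Open diamonds leave out the 4 arrays that stand apart: Gnai3 moves from -1.33 to -0.69 and Gng12 from -0.93 to -0.61, while Pde6d and Gnb1 stay at 0.44 and -0.31.

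Whether the effect of methamphetamine differed between the lines was tested by the interaction. No member passed (0 of 58, all genes 0%), and 1 had an unadjusted p under 0.05, against 2.62% of all genes. It was Pde7a, with an interaction of 0.58 (SE 0.249, adjusted p = 0.86 by limma). Pde7a had lowest, median and highest values of 3.38, 4.25 and 4.41 in HMACT saline, 4.02, 4.35 and 4.74 in HMACT methamphetamine and 4.4, 4.69 and 5 in LMACT saline. LMACT methamphetamine held 4.41, 4.71, 3.84, 4.41 and 4.43 for Pde7a. The lines thus differed most after saline. The next smallest p belonged to Gnas at -0.32 (SE 0.155) and Rgs2 at 0.83 (SE 0.439). Without the 4 arrays the interaction was 0.30 for Pde7a, -0.14 for Gnas and 0.49 for Rgs2, and Rgs2 alone then had an unadjusted p under 0.05 among the 58 members.

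Several members were read by more than 1 probe set, and these did not always concur. Of 13 members with several measured probe sets, the line difference had the same sign in 9 and differed in 4 (Adcy9, Gna13, Gnao1 and Pde4dip). Gnai2, an inhibitory alpha subunit, differed by 0.01 with the probe set used here and by 0.46 and 0.43 with the other 2, and the used one carries a suffix for probes shared with related sequences. Gnao1 differed by -0.16 with the probe set used and by 0.83 with a dimmer one. The probe sets used for Rgs8, Gnas and Pde1a carry suffixes of the same kind, so their values may include related transcripts, and that of Rgs19 carries one for relaxed probe selection.

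Other genes of the pathway, such as receptors, protein kinase A subunits and arrestins, were taken from a list. Of 49 listed, 23 were on the array, and 0 passed in any of the 7 comparisons. In the line comparison, in the mean of both injections, 3 were higher and 3 lower in HMACT at an unadjusted p under 0.05. Of all genes, 12.7% had such a p. These counts include 7 of the 23 that lay near their own lowest value by the rule that set members aside. Grk5, among the 3 higher, is such a gene, and its difference was only 0.06 (SE 0.026). The smallest p-values belonged to Prkaca, a catalytic subunit of protein kinase A, at 1.15 (SE 0.332, adjusted p = 0.198 by limma), and Akap8, an anchor of that kinase, at -0.41 (SE 0.139, adjusted p = 0.28 by limma). The SD of Prkaca was 1.25 in HMACT saline, 0.59 in HMACT methamphetamine, 0.38 in LMACT saline and 0.71 in LMACT methamphetamine. Both differences are over all 23 arrays, and the parts of the array axis and of age in them were not tested. With methamphetamine, 0 had such a p in the mean of both lines.

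Promoters were searched for motifs of factors that act downstream of cyclic AMP and calcium. RefSeq windows of GRCm38.p6, from 250 bases before to 50 after a transcription start, were found for 43 of 58 members (67 windows). The cyclic AMP response element TGACGTCA was in 0 of the 67 and in 1.79% of all 32851 windows, on either strand. One form of the serum response element was in 0 and 0.0639%, and the Egr motif GCGTGGGCG in 1 and 0.612%. A shorter form, TGACGT, which lies within the full element and was added after seeing the data, was in 4 of the 67 windows (Adcy9, Gng4, Pde4b and Rgs2) and 7.51% of all. The stretches for Gng12 and Rgs2, the members with the widest line differences among the 6 of low unadjusted p in the mean of both injections, are shown 5′ to 3′ on the gene's strand with the match in capitals, which reads as the reverse complement of the motif. That of Gng12 is chr6:66896332-66896400 on the plus strand and ends 4 bases past the start, and that of Rgs2 is chr1:144004270-144004395 on the minus strand. A match is a description of letters and not of a bound site.
Gng12: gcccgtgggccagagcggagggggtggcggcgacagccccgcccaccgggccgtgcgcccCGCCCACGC
Rgs2: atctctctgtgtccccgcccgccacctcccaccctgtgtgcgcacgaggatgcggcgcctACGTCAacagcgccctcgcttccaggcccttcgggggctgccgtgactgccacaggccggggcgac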

How the data were processed

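The authors deposited a table with a single value for every probe set of each array, apparently normalized between arrays, since their distributions nearly coincide, by a method not stated in these sources. These deposited values were taken as log2 from their range of 2.23 to 16.36, and the authors' background correction and probe set summary are likewise unstated. The submitters' processing notes name R 2.7.1 but not what it did. Of 12488 probe sets, 10833 were listed with 1 gene. The highest-mean probe set per gene gave 8251 genes, fitted with limma 3.58.1 in R 4.3.3 as 4 group means over 23 arrays with no covariates. Benjamini-Hochberg adjustment ran over all 8251 genes in each of 7 comparisons, with two-sided tests and differences on the log2 scale. Arrays give signal over a floor and no read depth, and their number limits the precision. The fit was tested on simulated data with independent noise for each gene and array. That simulation had no shared array axis, so it cannot show how the fit behaves with one. The members, marker and pathway lists were chosen with earlier results of these data known. Named are the members of known striatal role and those with the smallest p-values, 4 in each mean comparison and 3 in each other one, plus those the text singles out after their values were seen. Same-numbered pools of a line had similar ages and mostly shared a chip lot, and 8 of 11 such pairs had deviations correlated over 0.1 (range -0.62 to 0.88). Since the labels do not call a number a batch and 3 pairs fell short, arrays were fitted as independent, with blocks on the number as alternatives. Alternatives included other normalization, covariates, array weights, blocks, and leaving out arrays. All sample columns were used.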

Additional observations from a re-analysis of the deposited data

Results flagged for a closer look

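Each of 24 named members was examined within each group of 5 or 6 arrays, which gave 96 sets of values. In 16 of the 96 sets, a value had a gap to its nearest neighbour that was large against the group's whole range by Dixon's criterion. Chance meets that criterion in about 1 in 20 groups. Of these 16 values, 11 were on the 4 arrays that stand apart. HMACT methamphetamine replicate 3 gave low values of Gnai3 (4.49), Gnao1 (13.27), Gng12 (5.62), Rgs2 (8.23) and Rgs7 (7.26) and a high value of Adcy8 (4.36). HMACT saline replicate 3 gave high Pde1b (13.98) and Pde4dip (9.9) and low Rgs7 (7.33). HMACT saline replicate 5 gave high Adcy8 (4.25), and LMACT methamphetamine replicate 4 gave low Gng12 (6.83).

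The other 5 were on arrays that do not stand apart. Gnb4 was low at 5.8 in HMACT methamphetamine replicate 2, and Gnb5 was low at 10.8 in LMACT methamphetamine replicate 3. Pde4dip was low at 7.66 in LMACT saline replicate 3. In LMACT saline replicate 5, Rgs10 was low at 6.55 and Rgs7 high at 8.33.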

How the results depend on the processing

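Counts of members past an adjusted p stayed at 0 under the alternatives tried, except with array weights, where 4 passed between lines in the mean of both injections (Gng12, Gnai1, Pde6d and Rgs7) and 1 after methamphetamine (Rgs7), while 830 and 136 of all genes passed. The counts that follow are members with an unadjusted p under 0.05 by limma. For methamphetamine in both lines (0), the count was 1 with the array axis as a covariate, in the largest chip lot alone and without the arrays that stand apart, and 3 with array weights. In HMACT (0) it was 1 in the largest lot alone and with mean age as a covariate, and 4 with array weights. In LMACT (0) it was 1 with the axis as a covariate, without the arrays that stand apart, with only the groups compared and with a fixed replicate block over both lines, 4 in pools under 100 days alone and 5 with array weights. Between lines in the mean of both injections (6) it was 11 with array weights, 3 with mean age as a covariate, 2 in pools under 100 days alone and 21 with median centring. With the axis as a covariate this count stayed at 6, but only 2 of its members were shared with the fit without a covariate. After saline (6) it was 13 with array weights, 2 with the axis or with mean age as a covariate, 3 in the largest lot alone and without the arrays that stand apart, and 12 with median centring. After methamphetamine (2) it was 5 with the axis as a covariate, 8 with array weights, 4 in the largest lot alone, with mean age and without the arrays that stand apart, and 18 with median centring. For the interaction (1) it was 10 with array weights, 0 with chip lot and 2 with mean age as a covariate, 7 in pools under 100 days alone and 2 with a random replicate block within line. Median centring moved the lines by -0.05 in the mean of both injections and gave constant probe sets a difference: of its 21 members 17 were at their own minimum, and 18 were higher and 3 lower in HMACT, against 1 and 5 before. The cause of the other moves was not tested. The replicate blocks changed no other count by over 1.5 times, and 5 of 11 arrays correlated best with their own number. Leaving out each array in turn gave 0 to 1 for methamphetamine in both lines, 0 to 3 in HMACT and 0 to 2 in LMACT, 3 to 11 between lines in the mean of both injections, 2 to 14 after saline, 1 to 4 after methamphetamine and 0 to 6 for the interaction. The line difference of Gnao1 turned from -0.16 to 0.17 with the mean of all its probe sets. Of 49 differences of named members, 24 kept their sign under every alternative and 25 did not. Signal near the floor limits what 22 of the 58 members can show.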
